A study of Mus musculus with 4 samples.

Results

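*Madcam1*, *Itgb7* and *Itgb2* were examined in large intestinal ILC3s after activation of DR3. They were chosen by name, as the leukocyte beta integrins and the mucosal addressin among the 2179 genes of the deposited table, and all 3 were found there. ILC3s are innate lymphocytes of the gut that produce IL-22. Littermate *Rag1*-/- mice with a GFP reporter allele received PBS or 1 µg of the agonistic α-DR3 antibody 4C12, and on day 3 the Lin-GFP+ cells were sorted from large intestinal lamina propria lymphocytes. Both groups lacked *Rag1*, and therefore mature T and B cells, and both carried the GFP reporter by which the cells were sorted. Each group had 2 libraries, and each library was made from the pooled cells of several mice. The deposited table gives 1 mean per gene and group. By the study's methods, the listed genes are ones that edgeR called significant by p-value, with an average FPKM over 1 in either group. The study also lists FPKM per library in its supplement, which was not used here, so the values have no SD. Whether a difference exceeded the spread between the duplicate libraries was not tested again here.

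Integrins are receptors of 1 alpha and 1 beta chain that attach leukocytes to vessels, matrix and other cells. The β7 chain, encoded by *Itgb7*, pairs with the α4 chain to bind MAdCAM-1, the addressin of gut venules and of mucosal lymphoid tissue, and pairs with αE to bind E-cadherin on epithelium. The β2 chain (CD18), encoded by *Itgb2*, pairs with αL, αM, αX or αD to bind ICAM family ligands and complement fragments. MAdCAM-1 itself is usually a product of endothelial and lymphoid stromal cells rather than of lymphocytes.

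The promoter table used here matched 2 of the 3 genes, *Madcam1* and *Itgb7*, and not *Itgb2*. Their upstream sequences are shown to place the ligand gene beside the gene of its receptor chain. The sequences are from RefSeq on GRCm38.p6, 5′ to 3′ on the strand of the gene, and end before the first annotated transcribed base. The *Madcam1* stretch is chr10:79664309-79664558 on the plus strand (250 bases, 61.2% G or C). The *Itgb7* stretch is chr15:102231945-102232185 on the minus strand (241 bases, 55.6% G or C). Capitals mark matches to the κB motif, the binding motif of NF-κB, a transcription factor that TNF receptor family members such as DR3 are known to activate.
Madcam1: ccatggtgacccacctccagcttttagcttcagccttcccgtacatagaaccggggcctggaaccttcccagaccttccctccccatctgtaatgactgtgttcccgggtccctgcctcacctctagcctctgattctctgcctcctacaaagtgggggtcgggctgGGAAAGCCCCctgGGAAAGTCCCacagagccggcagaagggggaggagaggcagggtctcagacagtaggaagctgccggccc
Itgb7: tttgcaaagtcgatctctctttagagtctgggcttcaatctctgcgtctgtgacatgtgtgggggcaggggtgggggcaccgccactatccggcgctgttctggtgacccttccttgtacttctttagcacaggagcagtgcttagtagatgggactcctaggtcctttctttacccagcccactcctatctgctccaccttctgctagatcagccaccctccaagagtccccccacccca

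The *Madcam1* stretch held 2 κB matches that did not overlap, both read on the strand opposite to the gene. They were GGGGCTTTCC, lying 83 to 74 bases before the RefSeq start, and GGGACTTTCC, lying 70 to 61 bases before it. Over windows from 250 bases before to 50 bases after the start, 8.46% of 32851 mouse promoters held at least 1 κB match on either strand and 1.22% held 2 or more. In the *Itgb7* window the κB letters were not found. The ETS-type letters GAGGAAG, present in 13.6% of promoters, occurred once in the *Itgb7* window, just after the start, and were not found in that of *Madcam1*. RUNX-type TGTGGT and the TATA letters TATAAA, held by 16.8% and 13.6% of promoters, were found in neither window. These motifs were searched after the sequences had been read, and a match describes letters and not a binding site.

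*Madcam1* (ENSMUSG00000020310.7) lies on chromosome 10 of GRCm38, 79664559 to 79668537, on the plus strand, with 5 exons in its main transcript. Its authors' mean FPKM (sequenced fragments scaled to transcript length and to sequencing depth) was 0.26 in PBS and 9.03 in α-DR3. The level in α-DR3 was thus 34.7 times that in PBS, a difference of 2.99 on the scale of log2(mean FPKM + 1), which understates the change of low genes. *Madcam1* had the 4th highest ratio among the 2169 listed genes with both means above 0, and the 10th highest log2 difference of all listed genes. A gene as low as this in PBS could be listed only if it was higher in α-DR3, because each listed gene had a mean of at least 1.005 FPKM in 1 of the groups. Of the 207 listed genes under 1 FPKM in PBS, all 207 were higher in α-DR3, and 16 exceeded 5 FPKM there, *Madcam1* among them. Even so, its level in α-DR3 was moderate, in position 1150 of 2179 when listed genes are ordered from the highest mean.

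*Itgb7* (ENSMUSG00000001281.3; chromosome 15, 102215995 to 102231944, minus strand, 15 exons) was among the most abundant listed genes. Its authors' mean was 344 FPKM in PBS and 194 in α-DR3, 1.77 times lower after treatment, with a log2 difference of -0.82. It held position 49 of 2179 by level in PBS and position 106 in α-DR3. Per length, its level was 1321 times that of *Madcam1* in PBS and 21.5 times in α-DR3.

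*Itgb2* (ENSMUSG00000000290.7; chromosome 10, 77530252 to 77565708, plus strand, 16 exons) was the less abundant of these integrin genes and differed more between the groups. Its authors' mean was 137 FPKM in PBS and 60.4 in α-DR3, 2.27 times lower after treatment, with a log2 difference of -1.17. By level it moved from position 120 to position 308, and its log2 difference was the 51st lowest of all listed genes, against the 257th lowest for *Itgb7*. *Itgb2* and *Madcam1* share a chromosome but are 2098850 bases apart, and no annotated gene overlaps any of the 3 genes.

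**Figure D1:**
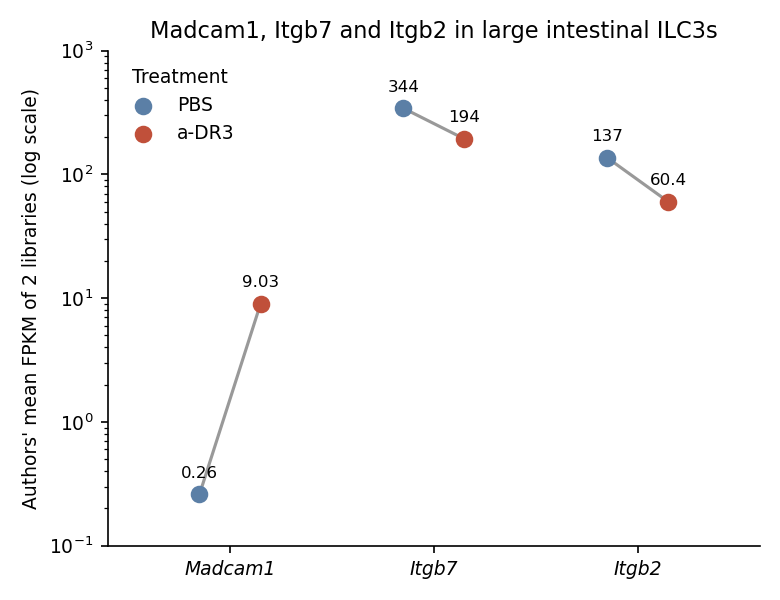
Authors' mean FPKM (log axis) of *Madcam1*, *Itgb7* and *Itgb2* in ILC3s from PBS-treated (blue) and α-DR3-treated (red) mice; each point is the mean of 2 libraries and has no error bar because single libraries are not in the table. *Madcam1* was at 0.26 in PBS and 9.03 in α-DR3, while both integrin genes were lower in α-DR3.

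For reading these differences, the background is the 2179 listed genes, which were selected as significant by p-value and do not stand for all expressed genes. Of these listed genes, 37.1% were at least 1.5-fold higher by the ratio of means and 38.4% were at least 1.5-fold lower. Of the 3 genes, 1 was past this limit in the higher direction and 2 in the lower direction, in a table where most genes were past it in either direction. Higher genes made up 49.1% of all genes past the limit. This share was 31.8% after scaling to a median ratio of 1, 28.9% after division by the summed FPKM and 37.0% after division by the sum without *Il22*, so that the balance of directions depended on the scaling. Of all listed genes, 21.1% were past the limit higher and 45.3% lower under the median ratio scaling. These shares were 18.4% and 45.3% under the sum scaling, and 26.2% and 44.7% under the sum scaling without *Il22*. The median ratio scaling shifted every log2 ratio by -0.39 and the sum scaling by -0.50. *Madcam1* stayed higher and both integrin genes stayed lower under each scaling, with log2 ratios without a pseudocount of 4.62 to 5.12, -1.32 to -0.82 and -1.68 to -1.18 for *Madcam1*, *Itgb7* and *Itgb2*.

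**Figure D2:**
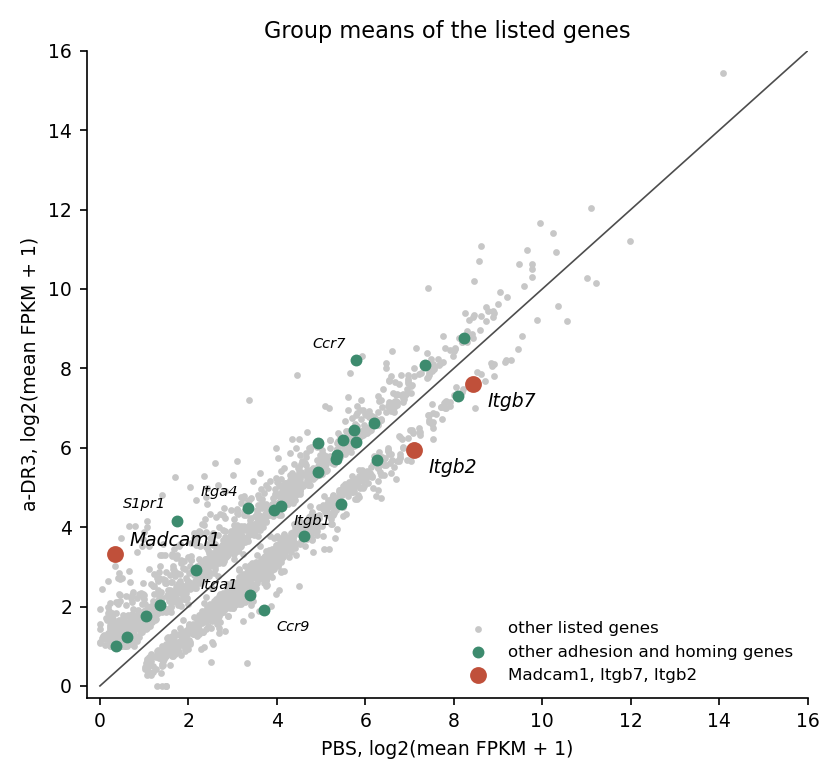
Each listed gene by its authors' mean in PBS (x) and α-DR3 (y), both as log2(mean FPKM + 1), with the line of equal means. *Madcam1* lies near the left edge above the line, and *Itgb7* and *Itgb2* lie below it at high levels; the empty band along the line shows that no gene with nearly equal means was listed.

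Among the other listed integrin subunits, *Itga1* was also lower in α-DR3, whereas *Itga4*, *Itgb1* and *Itgav* were higher, although *Itgb1* and *Itgav* were lower under the sum scaling. Of 9 beta subunit genes 3 were listed, and the remaining one was *Itgb1*, the β1 chain of most matrix-binding integrins, with 16.0 FPKM in PBS and 22.1 in α-DR3, 1.38 times higher, a direction that turned under the sum scaling. *Itgb7* made up 69.2% of the summed FPKM of these 3 beta chains in PBS and 70.2% in α-DR3. The share of *Itgb2* was 27.6% in PBS and 21.8% in α-DR3, and that of *Itgb1* was 3.22% and 7.99%.

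Of 18 alpha subunit genes 3 were listed, and they differed in direction. *Itga4*, whose product α4 is the partner of β7 in the MAdCAM-1 receptor, had 9.22 FPKM in PBS and 21.3 in α-DR3, 2.31 times higher. *Itga1*, the α1 chain of a collagen receptor, had 9.54 FPKM in PBS and 3.90 in α-DR3, 2.45 times lower. *Itgav*, which encodes αv, had 72.5 and 97.4 FPKM, 1.34 times higher, and turned lower under the sum scaling. The genes of αL, αM, αX and αE, partners of β2 and β7, were not among the rows analysed here. Only genes called significant were listed, so their levels are not known from this. Over the 6 listed integrin genes the median log2 difference was -0.20, against 0.36 over all listed genes.

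The 2 chains of the MAdCAM-1 receptor thus differed in opposite directions, and their transcripts came closer in level. *Itgb7* had 37.3 times the FPKM of *Itga4* in PBS and 9.10 times in α-DR3. Relative to *Itgb1*, the other partner of α4, *Itgb7* stood at 21.5 times in PBS and 8.78 times in α-DR3. *Itgb1* and *Itga4* themselves were at a ratio of 1.74 in PBS and 1.04 in α-DR3. These ratios compare levels per length within a group, so a scaling of the whole group does not alter them.

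The lengths behind FPKM matter for such comparisons. The average log2 CPM over all libraries in the authors' table was 2.55 for *Madcam1*, 9.44 for *Itgb7* and 8.07 for *Itgb2*. Set against the mean FPKM, these correspond to lengths of about 1264, 2592 and 2723 bases, close to the main transcripts of 1436, 2683 and 2970 bases in GENCODE M21. For *Itgb2* the length column of the table gives 4661 bases, which the FPKM values do not reflect.

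Among 12 adhesion ligands of leukocyte integrins, 3 were listed and each was past 1.5-fold higher in α-DR3, against 37.1% of the table. For 2 of them, *Madcam1* and *Vcam1*, the mean in PBS was under 1 FPKM, so that they could be listed only if higher in α-DR3. *Vcam1*, the ligand of α4β1 and also of α4β7, had 0.29 FPKM in PBS and 1.02 in α-DR3, just past the level needed for listing. *Madcam1* and *Vcam1* were thus near each other in PBS, with a ratio of 0.90, whereas *Madcam1* had 8.89 times the FPKM of *Vcam1* in α-DR3. *Thy1*, a surface glycoprotein of ILC3s that can bind integrins, had 163 FPKM in PBS and 268 in α-DR3, and was inside the limit under each of the 3 other scalings.

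Genes that activate integrins or link them to actin were listed for 10 of 36. Of these 10, 2 (20%) were past 1.5-fold higher and 1 (10%) was past it lower, against 37.1% and 38.4% of all listed genes. Under each of the 3 other scalings 1 was past it higher and 2 lower, with *Flna* inside the limit and *Pxn* past it. The shares of all listed genes were then 18.4% to 26.2% higher and 44.7% to 45.3% lower. *Skap1*, an adaptor that carries signals from antigen receptors to integrins, had 271 FPKM in PBS and 156 in α-DR3, 1.74 times lower. Its binding partner *Fyb* had 40.2 and 55.8 FPKM, in the other direction, which turned under the sum scaling. *Flna*, an actin crosslinker that binds beta integrin tails, had 52.6 FPKM in PBS and 86.9 in α-DR3. *Fermt2* (kindlin-2) was also past the limit but low, with 0.52 and 1.36 FPKM. *Pxn* (paxillin), a focal adhesion adaptor, had 75.4 FPKM in PBS and 50.4 in α-DR3, just inside the 1.5-fold limit.

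The remaining 5 genes of this list were 1.29 to 1.44 times higher in α-DR3. *Cytip*, which encodes a regulator of the integrin-activating protein cytohesin-1, was the most abundant of them, with 301 FPKM in PBS and 434 in α-DR3. *Apbb1ip* (RIAM), which brings talin to integrins, had 14.4 and 20.5 FPKM. *Rap1a*, the GTPase upstream of RIAM, had 29.3 and 40.6 FPKM, and turned lower under the sum scaling. *Zyx* (39.6 and 51.7 FPKM) and *Cyth1* (53.9 and 69.6 FPKM) turned lower under both the median ratio and the sum scaling.

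Of 14 selectin genes and genes of selectin ligand synthesis, 3 were listed. *Sele*, the endothelial E-selectin, had 1.07 FPKM in PBS and 2.39 in α-DR3, and the fucosyltransferase gene *Fut4* had 1.55 and 3.13 FPKM, past 1.5-fold except under the sum scaling. The sialyltransferase gene *St3gal6* had 43.0 FPKM in PBS and 23.0 in α-DR3. Over the 5 adhesion lists together, 22 of 89 genes were listed. The median log2 difference of these 22 was 0.46, against 0.36 for all listed genes. Of the 22, 36.4% were past 1.5-fold higher and 22.7% past 1.5-fold lower, against 37.1% and 38.4% of all listed genes. Under the median ratio scaling 27.3% were past it in each direction, against 21.1% higher and 45.3% lower of all listed genes. The sum scaling without *Il22* gave the same shares of the 22 genes, against 26.2% and 44.7% of all. Under the sum scaling they were 22.7% higher and 27.3% lower, against 18.4% and 45.3%.

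**Figure D3:**
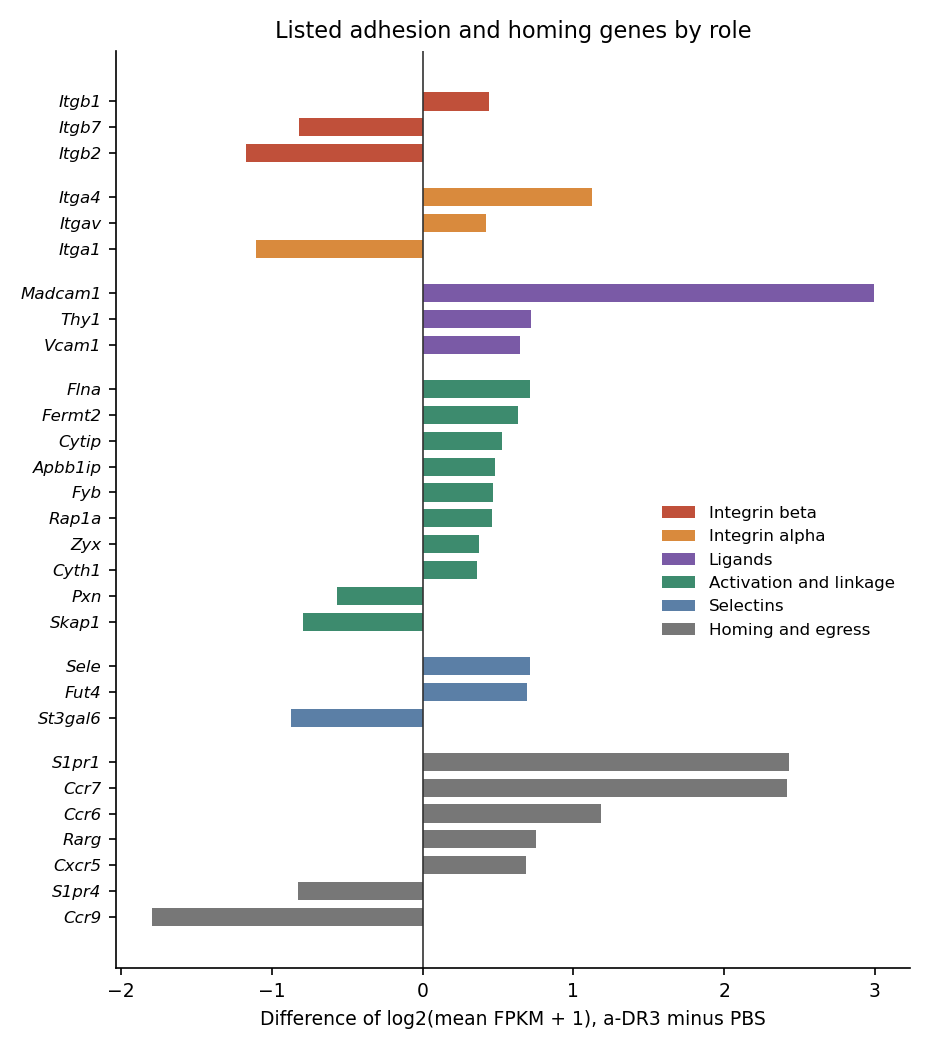
Difference of log2(mean FPKM + 1), α-DR3 minus PBS, for each listed gene of the adhesion and homing lists, grouped by role; bars to the right are higher in α-DR3. *Madcam1* has the longest bar at 2.99, and *Itgb7* and *Itgb2* are negative beside a positive *Itgb1*; 6 of the 29 genes, *Cyth1*, *Fyb*, *Itgav*, *Itgb1*, *Rap1a* and *Zyx*, change sign under the sum scaling.

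Receptors that guide lymphocytes into and out of the gut are used together with these adhesion molecules, and 7 of 17 were listed. Of these 7, 5 were past 1.5-fold higher and 2 past 1.5-fold lower, against 37.1% and 38.4% of all listed genes. The gut homing receptor gene *Ccr9*, which acts with α4β7, had 12.0 FPKM in PBS and 2.75 in α-DR3. *S1pr1*, whose product directs exit from tissue into lymph, had 2.33 FPKM in PBS and 16.9 in α-DR3, and *Ccr7* had 54.2 and 294. *Ccr6*, *Cxcr5* and the retinoic acid receptor gene *Rarg* were also higher in α-DR3, at 1.62 to 2.32 times PBS, whereas *S1pr4* was 1.83 times lower. These are RNA levels. The study reported a CCR7 protein difference in ILC3s that did not match the mRNA, and no accumulation of ILC3s in the other organs examined. Under the median ratio and the sum scaling 3 of the 7 receptors, *Ccr6*, *Ccr7* and *S1pr1*, were past the limit higher, and 2 were past it lower. The backgrounds were 21.1% and 18.4% higher, in that order, and 45.3% lower over the table. Under the sum scaling without *Il22* 4 were past it higher, with *Rarg* added, and 2 lower, against 26.2% and 44.7%.

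With only 2 group means, the genes most like each member were taken as those with the smallest distance in log2(mean FPKM + 1) of both groups. For *Madcam1* these were *Dscaml1* (0.27 FPKM in PBS and 7.13 in α-DR3), *Aif1l* (0.39 and 12.3) and *Gm20418* (0.36 and 6.19), at distances of 0.30 to 0.49. For *Itgb7* they were *Kdm2b*, *Cd160* and *Coq10b*, each with 324 to 362 FPKM in PBS and 186 to 206 in α-DR3. For *Itgb2* they were *Tubb2a* (136 and 65.9 FPKM), *Nedd9* (114 and 62.6) and *Skil* (115 and 63.8).

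The sorted cells carried transcripts that define ILC3s. *Il22* was at 17424 FPKM in PBS and 44537 in α-DR3, and *Tnfrsf25*, the gene of DR3 itself, at 115 and 140, the last named here as the target of the antibody, with a direction that turned under the median ratio and sum scalings. Altogether 11 of 18 ILC3 markers were listed, 6 past 1.5-fold higher and 2 past 1.5-fold lower, against 37.1% and 38.4% of all listed genes. *Ncr1* was among the lower ones, with 460 FPKM in PBS and 279 in α-DR3. Under the median ratio scaling 3 of the 11 were past the limit higher and 3 lower, against 21.1% and 45.3% of all listed genes. Under the sum scaling 2 were past it higher and 3 lower, against 18.4% and 45.3%. The sum scaling without *Il22* gave 3 higher and 3 lower, against 26.2% and 44.7%. The differences of *Itgb7* and *Itgb2* are those of a sorted population, in which fewer cells of a type and less RNA per cell cannot be told apart.

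Markers of cells that commonly express *Madcam1*, and of myeloid cells, also differed between the groups. Of 19 lymphoid stromal markers 7 were listed and all 7 were past 1.5-fold higher in α-DR3, against 37.1% of all listed genes. Under the median ratio scaling 5 of them were past the limit, 4 under the sum scaling and 6 under the sum scaling without *Il22*. The shares of all listed genes were 21.1%, 18.4% and 26.2%, in that order. The 7 markers had a summed level of 354 FPKM in PBS and 644 in α-DR3. Most of this was *Tnfsf11* (RANKL), which ILC3s also express, and the other 6, collagen genes, *Dcn*, *Lum* and *Vcam1*, summed to 6.87 FPKM in PBS and 17.6 in α-DR3. Of 18 endothelial markers 3 were listed, with a sum of 19.9 FPKM in PBS and 42.2 in α-DR3. *Cldn5* had 1.75 and 8.77 FPKM and *Eng* 11.5 and 30.4, whereas *Esam* had 6.57 FPKM in PBS and 3.01 in α-DR3. Defining endothelial and stromal markers such as *Pecam1*, *Cdh5* and *Ccl19* were not among the rows analysed here. Since the list holds only genes called significant, this absence gives no level for them.

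Of 26 myeloid and dendritic cell markers 9 were listed, all past 1.5-fold higher, against 37.1% of all listed genes. Their sums were 84.1 FPKM in PBS and 191 in α-DR3, although the lineage antibodies of the sort included CD11b and CD11c. Under each of the other scalings 7 of the 9 were past the limit, against 18.4% to 26.2% of all listed genes. *Zbtb46* (42.3 FPKM in PBS and 71.4 in α-DR3) and *Batf3* (31.9 and 56.4), which were inside it under those scalings, made up most of both sums. *Lyz2* had 4.09 FPKM in PBS and 37.9 in α-DR3. T cell, B cell and epithelial markers were listed for 1 gene each, *Cd28* (20.5 FPKM in PBS and 8.77 in α-DR3), *Cd79b* (10.9 and 27.2) and *Lgals4* (12.4 and 5.28). None of the listed markers was at 0 in PBS, but 4 of the 7 stromal and 5 of the 9 myeloid markers were under 1 FPKM there and could be listed only if higher in α-DR3. The part of other cell types in the difference of *Madcam1* was not tested.

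**Figure D4:**
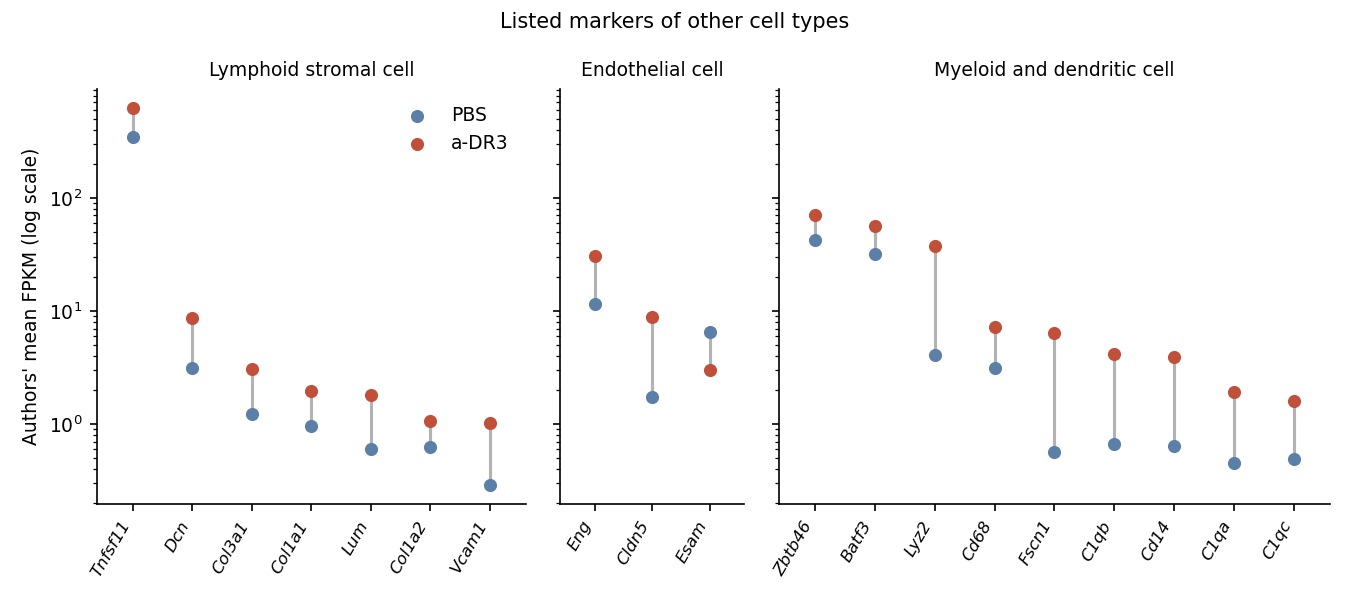
Authors' mean FPKM (log axis) of the listed lymphoid stromal, endothelial and myeloid or dendritic cell markers in PBS (blue) and α-DR3 (red), with 1 mean of 2 libraries per point. All points but *Esam* are higher in α-DR3, and among the stromal markers only *Tnfsf11* exceeds 10 FPKM.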

How the data were processed

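Poly(A) RNA of sorted ILC3s was sequenced in paired ends. Per the labels and the study's methods, the authors mapped reads with STAR 2.5 to GRCm38.p5, quantified genes with RSEM 1.2 on a GENCODE annotation and compared the groups with edgeR 3.18.1. The authors deposited 1 table for the series, with the mean FPKM of the duplicate libraries of each group, an average log2 CPM over all libraries, gene lengths, and their fold changes, likelihood ratios, p-values and FDR. The columns of their comparison were not used. The table lists genes that the methods describe as significant by p-value with an average FPKM over 1 in either group, and its depth is unknown.

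Values of both groups were set side by side as ratios and as differences of log2(mean FPKM + 1). No test was run, because the deposited table has 1 mean per gene and group. FPKM per library is in the supplement of the study, and was not used here. Genes past 1.5-fold were counted, and the counting was checked on artificial values with known folds. Genes were matched to GENCODE M21 (GRCm38) without version suffixes (2149 of 2179 found), and 5 symbols turned into dates were restored. The members, gene lists and motifs were chosen with earlier results of these data known. Values of 1 ILC3 marker and the name of the reporter allele are not reported here. Named were the members, the listed genes of each list, and the 3 genes nearest to each member. Alternatives covered the pseudocount, scaling, the fold limit and a filter on low FPKM. Python 3.11.15, numpy 2.4.6, pandas 2.3.3 and matplotlib 3.10.9 were used.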

Additional observations from a re-analysis of the deposited data

How the results depend on the processing

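A value was taken to have changed where it differed from the reported one by over 1.5 times, since the table gives neither replicate SD nor counts. The directions of *Madcam1*, *Itgb7* and *Itgb2* held under all 6 alternatives tried for each. The log2 difference of *Madcam1* was 4.66 with a pseudocount of 0.1, 1.42 with 5 and 5.12 with none. That of *Itgb7* was -1.32 under the sum scaling, where *Il22* held 29.0% of the α-DR3 sum. Scaling by a sum without *Il22*, an alternative added after seeing the data, changed neither the log2 differences of these 3 genes nor the counts over all listed genes by as much, but did change counts of some lists. Genes past the limit in the higher direction numbered 808, and 517 with a mean FPKM over 5, 460 under the median ratio scaling and 401 under the sum scaling. A limit of 2-fold gave 446 higher and 257 lower genes, against 836 lower at 1.5-fold. Under the median ratio scaling the median log2 difference was -0.58 for the integrin subunits and 0.085 for the adhesion lists. Counts of each list under the scalings were added after seeing the data. The median over listed genes is itself a median of selected genes. No paired analysis was possible because the deposited columns are group means and carry no replicate numbers, and for the same reason no library was left out in turn. The FPKM per library in the supplement of the study was not used here. Depth is unknown, so no counting error can be given for *Madcam1* at 0.26 FPKM.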

Other observations

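Some genes close to the members on the chromosome were listed. Within 100000 bases of *Madcam1*, 14 genes are annotated and 1 was listed, *Cdc34*, with 8.06 FPKM in PBS and 12.3 in α-DR3. Within the same distance of *Itgb2* lie 9 annotated genes, of which 0 were listed. Around *Itgb7*, 4 of 14 genes were listed. *Zfp740*, 389 bases away, had 5.98 FPKM in PBS and 3.94 in α-DR3, and *Soat2* and *Spryd3* were also lower in α-DR3, with log2 differences of -0.88 and -0.60. *Rarg*, 2994 bases from *Itgb7*, was higher, with 3.53 FPKM in PBS and 6.62 in α-DR3.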
